A study of Mus musculus with 24 samples.

Results

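The mitochondrial ribosomal protein genes were measured in single naturally ovulated mouse oocytes. They were taken as the table entries whose symbol is Mrps or Mrpl followed by a number and at most 1 letter, with the first entry kept for each symbol. There were 76 such genes among 25899 distinct symbols, 29 named for the small subunit (Mrps) and 47 for the large subunit (Mrpl), spread over 17 chromosomes. The study compared oocytes of females hemizygous for the transgene Thy1.2-AMHTg/0, which overexpress anti-Müllerian hormone (AMH), with oocytes of wild-type Thy1.2-AMH0/0 females. AMH is a granulosa cell hormone that restrains follicle growth, and the Thy1.2 promoter is known for its activity in neurons. Values were available for 10 transgenic and 11 wild-type oocytes from 4 females of each genotype, with 2 or 3 oocytes per female, and for 1 library of the control RNA supplied with the amplification kit. All females were adult mice, with no age given in weeks. Each oocyte was collected from the oviduct and freed of cumulus cells and zona before lysis. Each of 4 sequencing lanes held 1 female of each genotype, so a female is named below by its genotype and lane. The female was the replicate in the comparisons of genotypes, apart from 1 alternative fit to single oocytes.

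Mitochondria translate the few proteins encoded by their own genome, core subunits of the respiratory chain and the ATP synthase, on ribosomes of their own. The RNAs of these ribosomes come from mitochondrial DNA, whereas every protein of both subunits is encoded in the nucleus, made in the cytosol and imported. The small subunit decodes the messenger RNA, and the large subunit forms the peptide bond and holds the tunnel through which the new chain leaves. Some of the proteins have counterparts in the bacterial ribosome, and others were gained in mitochondria. The egg supplies the mitochondria of the embryo and stores messenger RNA for use after fertilisation.

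Levels are given in RPM, a gene's reads scaled to a library of 1000000 reads, and between genes in RPKM, which divides RPM by the summed exon length in kilobases. RPM is a share of a library; the amount of RNA per oocyte was not measured. Oocyte libraries held 20441302 to 33341040 reads, so that 3 reads equal 0.0900 to 0.147 RPM. All 12 egg markers examined had reads in both genotypes, with Bcl2l10, an oocyte gene of the Bcl2 family, at 7296 to 12140 RPM in single oocytes. Of 18 cumulus and granulosa markers, 11 had no reads in any transgenic oocyte and 3 in no wild-type oocyte. Leaving out Bmpr1b, which the oocytes themselves held at 166 to 305 RPM, the markers summed to 1.58 ± 0.72 RPM for the transgenic females and 5.68 ± 7.61 RPM for the wild type (SD, n = 4), and the highest female was the wild-type female of lane 2 at 16.9 RPM. Of 8 blood and immune markers, 5 had no reads in any transgenic oocyte, and 4 had none in any wild-type oocyte. Hba-a1 and Hbb-b1, which encode haemoglobin chains, had no reads in any oocyte. Pecam1 of the same list was at 38.0 to 147 RPM in single oocytes and 14.7 RPM in the control RNA. Amh had no reads in transgenic oocytes, so the values give no check of the transgene.

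In 2 females both oocytes stood apart from all other oocytes in many genes. Both oocytes of the transgenic female of lane 1 were lower than every other oocyte in 3.68% of the 10965 genes tested, and both oocytes of the wild-type female of lane 4 were higher than every other oocyte in 4.88%. Counts of lower genes, medians and the comparison of subunits are given with and without them.

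Most of the mitochondrial ribosomal protein genes were present in every oocyte, at levels that differed widely between genes. Reads were found in all 21 oocytes for 72 of the 76. Mean levels over the 8 females ran from 0.448 to 276 RPM, a 616-fold span, with 6 genes at 100 RPM or more, 39 from 10 to 100 RPM, 11 from 5 to 10 RPM and 20 below 5 RPM. The genes at 100 RPM or more were Mrps14 of the small subunit and Mrpl18, Mrpl21, Mrpl32, Mrpl24 and Mrpl3 of the large, all of them counterparts of bacterial ribosomal proteins. Mrpl18 was the highest, at 276 ± 43.4 RPM (SD over 8 females). The 4 genes with a mean below 1 RPM, which were left out of the tests, were Mrpl43, Mrpl52, Mrpl27 and Mrps10, at 0.448, 0.706, 0.749 and 0.796 RPM. Of these, Mrpl43 had reads in 13 of 21 oocytes and Mrpl27 in 18.

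**Figure D1:**
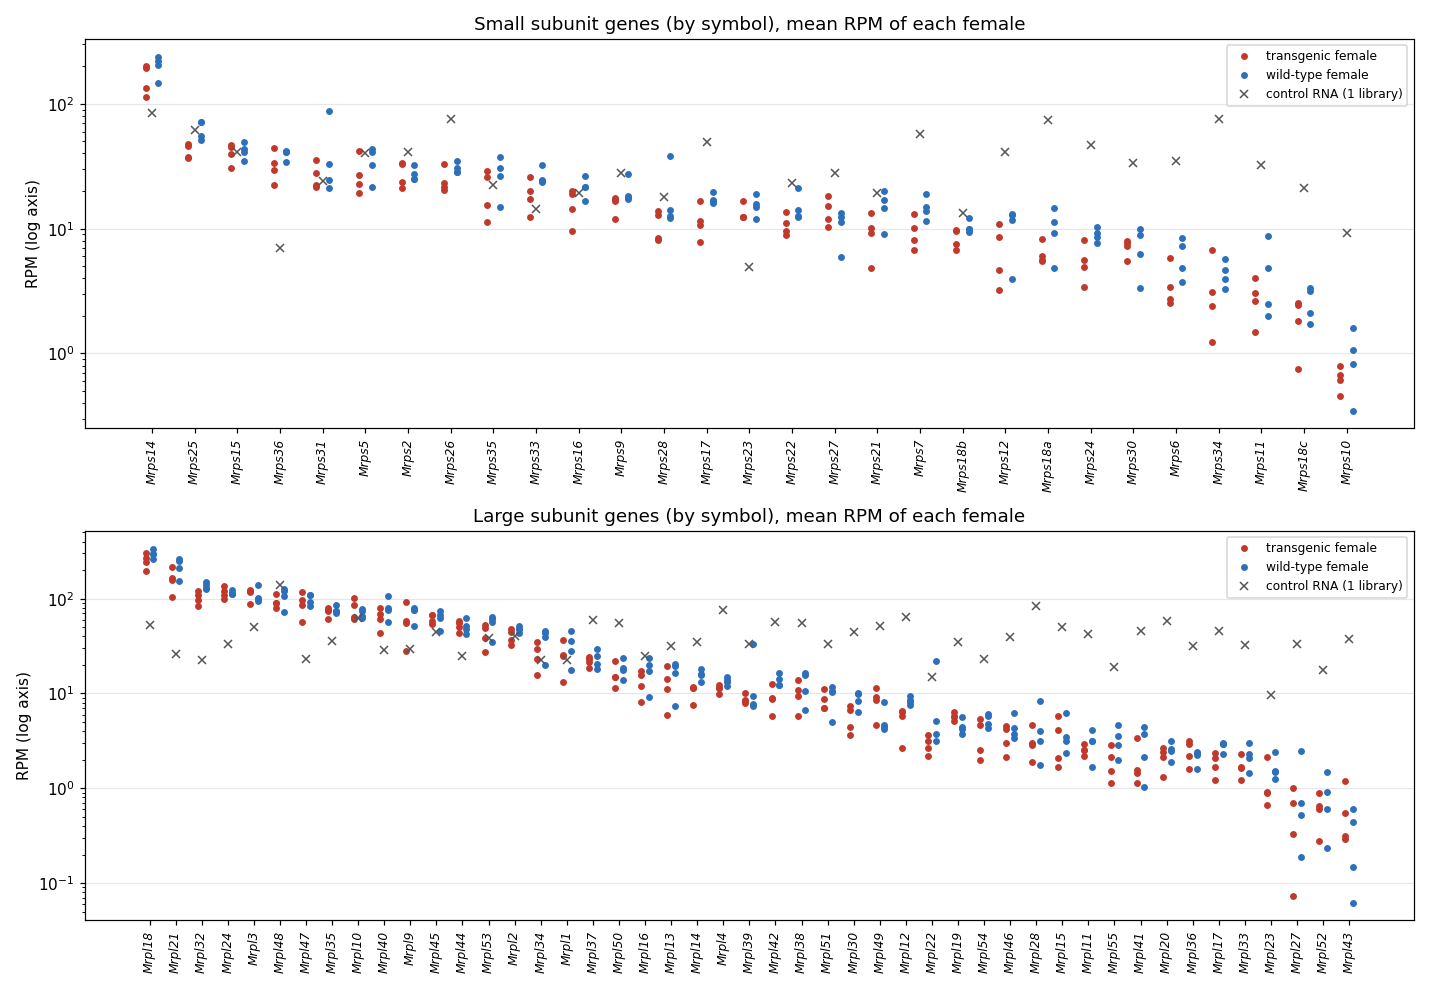
Mean RPM of each female (red, transgenic, 4 females; blue, wild type, 4 females) and the single control RNA library (crosses) on a log axis, for the 29 genes named for the small subunit (top) and the 47 named for the large subunit (bottom), ordered by mean level. The 6 genes at 100 RPM or more stand at the left of the panels, and the crosses keep within a narrower range than the oocytes.

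Per exon length the medians of the subunits were close. The median level was 5.88 RPKM for the small subunit and 4.80 RPKM for the large, over the 75 genes with a length (Mrpl33 had none). In the small subunit the highest were Mrps14, the counterpart of bacterial S14 in the head of the subunit, at 55.7 ± 13.7 RPKM, Mrps36 at 28.3 ± 5.90 RPKM and Mrps15, the counterpart of S15, at 24.5 ± 3.73 RPKM (SD over 8 females). Its lowest were Mrps10, the counterpart of S10, at 0.098 ± 0.049 RPKM, and Mrps30 at 1.06 ± 0.31 RPKM. In the large subunit the highest were Mrpl18, the counterpart of L18, at 198 ± 31.0 RPKM, Mrpl21, the counterpart of L21, at 94.4 ± 26.7 RPKM, and Mrpl53, a protein without a bacterial counterpart, at 60.8 ± 16.4 RPKM. Of the exon bases of Mrpl53, 88.0% are shared with Gm42688 on the same strand, so its reads cannot be assigned to 1 of the 2 genes. The lowest were Mrpl23, the counterpart of L23 beside the exit tunnel, at 0.289 ± 0.125 RPKM and Mrpl43 at 0.295 ± 0.230 RPKM, which differed by less than their spread.

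Names and places in the ribosome do not always match. Mrps30 and Mrps18a carry small subunit symbols, and their proteins sit in the large subunit. Mrps36 is now known as a component of the 2-oxoglutarate dehydrogenase complex. Mean levels were 7.09 ± 2.04 RPM for Mrps30, 8.19 ± 3.45 RPM for Mrps18a and 36.05 ± 7.52 RPM for Mrps36 (SD over 8 females). The remaining genes for relatives of bacterial S18 are Mrps18b at 9.40 ± 1.68 RPM and Mrps18c at 2.24 ± 0.83 RPM. Mrps18c, the closest relative of S18, was the lowest of the trio. Of the exon bases of Mrps18b, 30.5% overlap Gm16279 on the opposite strand. Mrps18c shares 23.2% of its exon bases with Gm43511 on the same strand.

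The stretch before the start site is shown for 2 genes at opposite ends of the level range, the highest of the small subunit and one below 1 RPM. Sequences are from RefSeq (GRCm38.p6), from 250 to 11 bases before the start, 5′ to 3′ on the strand of the gene. Capitals mark exact matches, on either strand, to the letters of 4 promoter motifs, none of which contains another. For ETS family factors such as GABPA the letters searched were CCGGAAG. The YY1 motif was searched as AAGATGGCG. Those of SP1, a factor of promoters rich in G and C, were GGGCGG. The TATA box, which places the start in a minority of promoters, was searched as TATAAA.
Mrps14 (chr1:160194965-160195204, plus strand): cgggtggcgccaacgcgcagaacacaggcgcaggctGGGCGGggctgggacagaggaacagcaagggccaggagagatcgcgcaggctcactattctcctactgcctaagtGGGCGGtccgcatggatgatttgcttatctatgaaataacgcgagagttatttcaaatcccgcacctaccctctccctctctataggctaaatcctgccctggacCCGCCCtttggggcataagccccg
Mrpl52 (chr14:54426659-54426898, plus strand): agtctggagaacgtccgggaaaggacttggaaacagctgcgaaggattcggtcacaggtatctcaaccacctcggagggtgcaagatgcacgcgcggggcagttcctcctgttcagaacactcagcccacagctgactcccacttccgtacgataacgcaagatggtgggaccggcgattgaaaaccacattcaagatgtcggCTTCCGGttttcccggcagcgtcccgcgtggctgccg
The Mrps14 stretch holds GGGCGG 3 times, once as its reverse complement, and the Mrpl52 stretch holds CCGGAAG once as its reverse complement. A match is a run of letters and not a measured binding site.

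Promoters of 67 of the 76 genes were in the RefSeq table, each 300 bases long (250 before and 50 after the start). CCGGAAG was in 34.3% of them (23 of 67), in 18.4% of the 7678 promoters of tested genes and in 9.12% of all 27025 promoters. AAGATGGCG was in 11.9% (8 of 67), against 3.30% of tested genes and 1.49% of all. GGGCGG was in 49.3% of the mitochondrial ribosomal promoters and in 63.3% of those of tested genes, and TATAAA in 5.97% and 7.11%. By subunit, CCGGAAG was in 42.3% of 26 small subunit promoters and 29.3% of 41 large subunit promoters. GGGCGG was in 65.4% of the small and 39.0% of the large subunit promoters.

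The comparison of genotypes asks whether oocytes from AMH-overexpressing females differ from wild-type oocytes in these genes. No gene passed the test, and most of the mitochondrial ribosomal protein genes had lower means in transgenic oocytes. With limma on the mean log2(RPM + 1) of each female, 0.00% of 10965 genes were called at an adjusted p under 0.05, and the smallest adjusted p was 0.722. The fold changes below are on the log2(RPM + 1) scale, which understates changes of low genes. Of the 72 genes tested, 62 had a lower mean in transgenic oocytes, whereas 52.2% of all genes tested did. Their median difference was -0.34 log2 against -0.01 for all genes. At an unadjusted p under 0.05, 11 of 72 were lower and 0 higher, where the same limit was passed by 4.05% of all genes (444) in the lower and 2.78% (305) in the higher direction. All 4 lanes had the transgenic female lower in 22 of 72 genes (10.3% of all genes) and higher in 0 (7.98%). Every transgenic female was below every wild-type female on that scale in 7 (2.64% of all genes), and above in 0 (1.68%).

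The count at an unadjusted p depended on single females. Without the transgenic female of lane 1, which had the lowest mean level of both subunits, it was 5 of 72 (2.10% of all genes) and the median difference was -0.21. Leaving out the lane 3 wild-type female, which had the highest, also gave 5 (2.54% of all genes). The count was 18 (5.15%) when the transgenic female of lane 3 was left out and 23 (7.51%) when the wild-type one of lane 4 was, where the median difference was -0.38. With lane as a block the count was 19 (5.74% of all genes), and no gene was called. A fit to single oocytes, with a random effect for the female and a block for the lane, gave 26 (9.04% of all genes). It used 1 correlation between oocytes of 1 female for all genes, estimated at 0.0495. Oocytes of 1 female thus counted as nearly independent in that fit. The number of genes with a lower mean ran from 58 to 65 of 72 when each female was left out in turn. The share of reads that fell in listed genes moved with genotype, at 93.4 ± 0.85% for the transgenic and 92.5 ± 0.61% for the wild-type group (SD, n = 4). The female with the highest share, transgenic of lane 1 at 94.5%, had the lowest summed level of these genes, 1839 RPM. The one with the lowest share, wild type of lane 3 at 91.8%, had the highest, 2889 RPM. The part of this share in the differences was not tested. Centring each oocyte on its median over the genes tested gave a median difference of -0.29, with 61 of 72 lower.

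**Figure D2:**
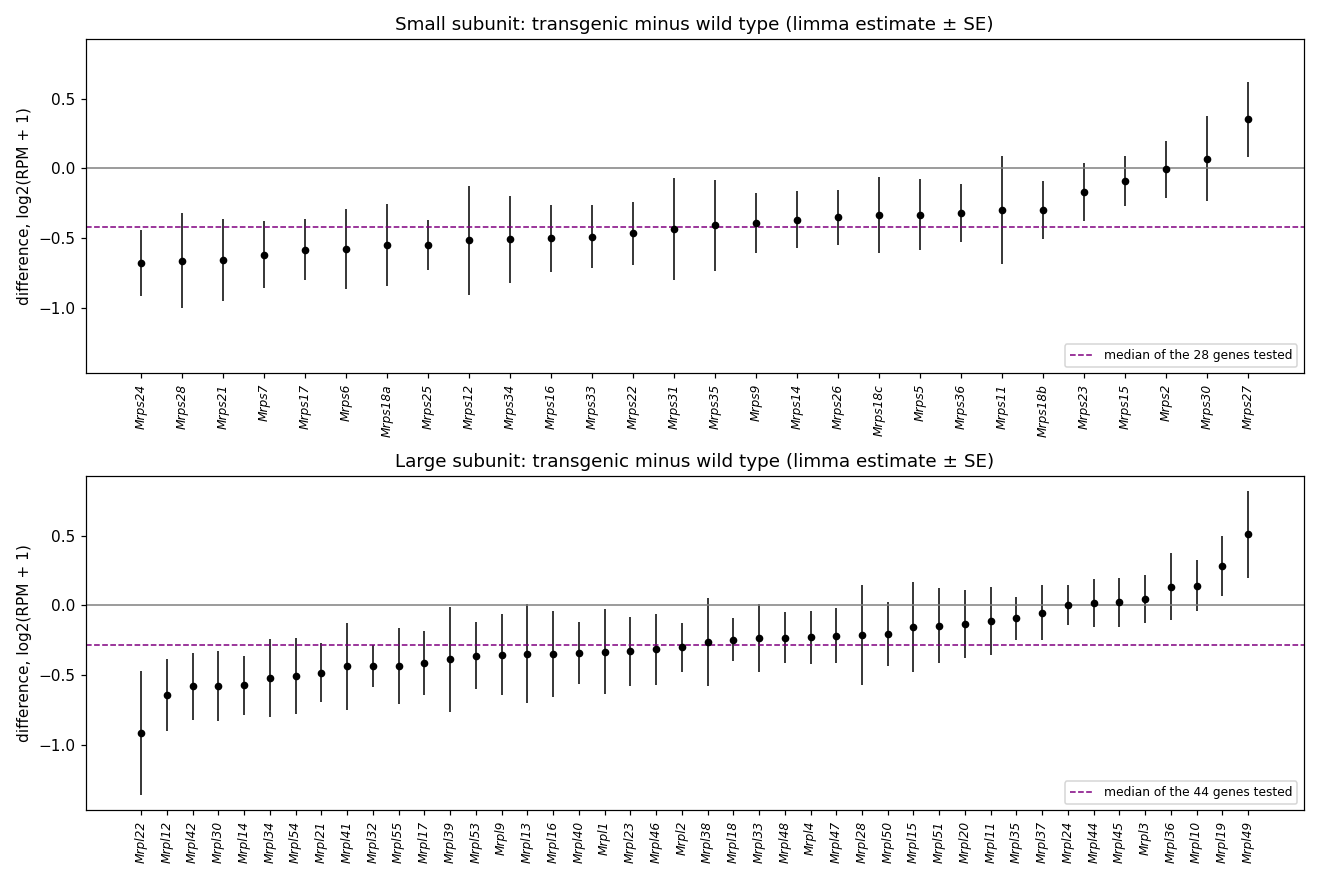
Difference between transgenic and wild-type oocytes on the log2(RPM + 1) scale (limma estimate, bars ± SE, 4 females per genotype) for the 28 small subunit genes (top) and 44 large subunit genes (bottom) tested; the dashed line is the median of the panel. Of these genes 26 and 36 lie below 0, and no gene passed the adjusted threshold.

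The 6 genes with the smallest p in the lower direction were Mrps25, Mrpl32, Mrps24, Mrpl14, Mrps17 and Mrps7, each with an adjusted p of 0.722 in limma. Mrps25 encodes a small subunit protein gained in mitochondria. Its female means were 36.6, 46.2, 47.5 and 37.3 RPM in transgenic lanes 1 to 4 and 54.9, 71.4, 71.2 and 51.5 RPM in wild-type lanes 1 to 4. Every transgenic female was below every wild-type female, and the difference was -0.55 ± 0.18 log2 (SE). Of its exon bases 69.8% overlap Nr2c2 on the opposite strand, and without strand the reads of the pair cannot be told apart. Over all settings tried its adjusted p ran from 0.061, with single oocytes as the unit, to 0.999.

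Mrps24 encodes the counterpart of bacterial S3, which lies at the entry of the messenger RNA. Its female means were 3.38, 5.60, 8.07 and 4.92 RPM in transgenic lanes 1 to 4 and 7.68, 9.29, 10.4 and 8.50 RPM in wild-type lanes 1 to 4. The transgenic female of lane 3 was above the wild-type female of lane 1 in RPM, whereas the mean log2 values of the genotypes did not overlap. The difference was -0.68 ± 0.24 log2 (SE). Mrps24 shares 15.4% of its exon bases with Urgcp on the same strand. Mrps17, the counterpart of S17, had 7.77, 10.7, 16.8 and 11.5 RPM in the transgenic females and 16.2, 16.9, 19.5 and 16.8 RPM in the wild-type females of lanes 1 to 4. Its difference was -0.58 ± 0.22 log2 (SE), with only the transgenic female of lane 3 reaching the wild-type range in RPM. Mrps7, the counterpart of S7 in the head of the small subunit, had 8.14, 10.0, 13.1 and 6.79 RPM in the transgenic females and 13.9, 19.1, 14.9 and 11.6 RPM in their wild-type counterparts. The groups overlapped through the transgenic female of lane 3 and the wild-type female of lane 4, and the difference was -0.62 ± 0.24 log2 (SE).

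Mrpl32 encodes a large subunit protein that the mitochondrial m-AAA protease trims before assembly. Its female means were 84.0, 95.8, 110.4 and 119.6 RPM in transgenic lanes 1 to 4 and 126, 131, 140.3 and 151 RPM in wild-type lanes 1 to 4. The groups did not overlap, and the difference was -0.43 ± 0.15 log2 (SE). Mrpl14, the counterpart of L14 on the face that meets the small subunit, had 7.55, 11.5, 11.5 and 11.6 RPM in the transgenic females and 13.2, 18.0, 15.8 and 16.2 RPM in their wild-type counterparts. These groups did not overlap either, and the difference was -0.57 ± 0.21 log2 (SE). Mrpl12, which forms the flexible stalk that recruits translation factors, and Mrps22 were the other genes without overlap on the log2 scale besides Mrps25, Mrps24, Mrps17, Mrpl32 and Mrpl14. These 2 were named after their values were seen. Mrpl12 differed by -0.64 ± 0.25 and Mrps22 by -0.46 ± 0.23 log2 (SE).

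The promoters of the small subunit genes with the smallest p are shown because both genes had lower transgenic levels in all 4 lanes, with the same motifs in capitals.
Mrps25 (chr6:92184034-92184273, minus strand): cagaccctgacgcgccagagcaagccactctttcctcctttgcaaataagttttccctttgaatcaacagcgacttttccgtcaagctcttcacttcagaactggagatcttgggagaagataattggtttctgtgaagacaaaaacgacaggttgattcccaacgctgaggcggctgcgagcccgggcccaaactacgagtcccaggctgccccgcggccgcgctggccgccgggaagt
Mrps24 (chr11:5707712-5707951, minus strand): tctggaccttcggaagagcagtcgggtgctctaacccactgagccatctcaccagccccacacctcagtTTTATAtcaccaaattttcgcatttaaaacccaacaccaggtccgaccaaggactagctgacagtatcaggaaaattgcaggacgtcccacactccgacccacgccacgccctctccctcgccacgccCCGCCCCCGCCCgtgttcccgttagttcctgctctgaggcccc
The Mrps25 stretch holds none of the 4 motifs. The Mrps24 stretch holds the reverse complement of GGGCGG 2 times and that of TATAAA once, and lies inside the extent that the table gives for the gene, before the RefSeq start.

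In the opposite direction the 6 genes with the smallest p were Mrpl49, Mrps27, Mrpl19, Mrpl10, Mrpl36 and Mrpl3, with differences of 0.51 ± 0.31, 0.35 ± 0.27, 0.28 ± 0.21, 0.14 ± 0.18, 0.13 ± 0.24 and 0.05 ± 0.17 log2 (SE) and adjusted p from 0.764 to 0.954 in limma. Mrpl49 encodes a large subunit protein without a bacterial counterpart. It had 8.55, 9.09, 11.3 and 4.70 RPM in the transgenic females and 4.26, 4.45, 4.65 and 8.04 RPM in the wild-type females of lanes 1 to 4. Its transgenic female was higher in lanes 1 to 3 and lower in lane 4. The unadjusted limma p of Mrpl49 was 0.125 in the main fit and 0.143 with lane as a block. Leaving out a female of lane 4, the lane that went the other way, raised the difference. It was 0.79 (limma p 0.014) without the transgenic and 0.70 (limma p 0.034) without the wild-type female of that lane. Leaving out a female of another lane gave differences from 0.34 to 0.46 and limma p from 0.205 to 0.316. With single oocytes the difference was 0.61 (limma p 0.045). The adjusted p of Mrpl49 over all settings ran from 0.335 to 0.999. Mrps27 encodes a pentatricopeptide repeat protein of the small subunit, Mrpl10 the base of the stalk and Mrpl19, Mrpl36 and Mrpl3 counterparts of L19, L36 and L3. The difference of Mrps27 was 0.12 when the wild-type female of lane 4 was left out and 0.22 when the transgenic one of lane 2 was. That of Mrpl10 was 0.01 without the transgenic female of lane 1 and between 0.08 and 0.25 when any other female was left out. For Mrpl36 the values were 0.03, 0.06 and 0.05 when the transgenic females of lanes 3 and 4 and the wild-type female of lane 4 were left out, and 0.27 for the transgenic one of lane 1. Mrpl3 took values from -0.03 to 0.17 on leaving out 1 female. Of the exon bases of Mrpl19, 36.0% overlap Gcfc2 on the opposite strand, and of those of Mrps27, 24.2% overlap 6430562O15Rik on the opposite strand.

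Both subunits had lower mean levels in transgenic oocytes. The difference between the subunits was not tested. The mean log2(RPM + 1) of the 29 small subunit genes was 3.29, 3.72, 3.90 and 3.64 in the transgenic females of lanes 1 to 4 and 3.98, 3.97, 4.22 and 3.89 in the wild-type females. The highest transgenic female (lane 3) was level with the lowest wild-type female (lane 4), and the group means were 3.64 ± 0.25 and 4.01 ± 0.14 (SD, n = 4). For the 47 large subunit genes the mean was 3.47, 3.82, 3.87 and 3.73 in transgenic females and 3.91, 3.97, 4.09 and 3.88 in wild-type females. These groups did not overlap, at 3.72 ± 0.18 and 3.96 ± 0.09 (SD, n = 4). The margin was narrow, with the transgenic female of lane 3 at 3.873 and the wild-type female of lane 4 at 3.884. In summed RPM of the large subunit genes the order of these females was reversed, at 1801 and 1763 RPM. Of the genes tested, 26 of 28 small subunit genes had a lower mean, with a median of -0.42 log2, and 36 of 44 large subunit genes, with a median of -0.28.

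The mean of the small subunit minus that of the large was -0.18, -0.10, 0.03 and -0.09 log2 in transgenic females of lanes 1 to 4 and 0.08, 0.00, 0.12 and 0.01 in wild-type females. The transgenic female was the lower of the pair in all 4 lanes, by 0.25 log2 in lane 1 and by about 0.10 in each of the others. The transgenic female of lane 3 was above the wild-type females of lanes 2 and 4, so the groups overlapped. The difference between the groups was -0.14 log2 over all 76 genes and -0.13 over the 72 tested, and over the latter it was -0.10 without the transgenic female of lane 1 and -0.13 without the wild-type one of lane 4. With the subunits assigned by structure (Mrps30 and Mrps18a in the large subunit, Mrps36 in neither) the groups did not overlap. The difference was then -0.15. The margin was narrow, with the transgenic female of lane 3 at 0.063 and the wild-type female of lane 2 at 0.071. Summed over genes, the levels came to 2207 ± 273 RPM for transgenic and 2648 ± 188 RPM for wild-type females (SD, n = 4), with the ratio of small to large sums at 0.354 ± 0.034 and 0.395 ± 0.013. In lane 2 that ratio was 0.379 in both females.

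**Figure D3:**
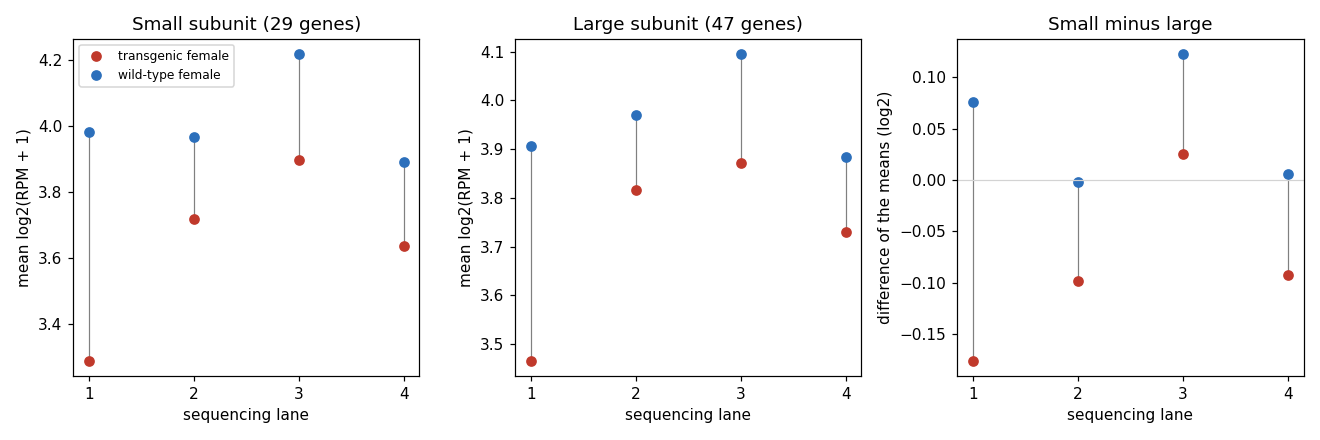
Mean log2(RPM + 1) of the 29 small subunit genes (left) and the 47 large subunit genes (middle) and their difference (right) in each female by sequencing lane; grey lines join the 2 females of a lane, red is transgenic and blue wild type, and the vertical axes do not start at 0. The transgenic female is the lower one in all 4 lanes of each panel.

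Single oocytes of 1 female could differ as much as the genotypes. Summed levels ran from 1807 to 3075 RPM in transgenic oocytes and from 2247 to 3027 RPM in wild-type oocytes. Both ends of the transgenic range were filled by females of lanes 1 and 3, and the 3 oocytes of the transgenic female of lane 3 had 1867, 2550 and 3075 RPM. In the same order, 93.6%, 92.6% and 91.1% of the reads of these 3 oocytes fell in listed genes. The part of this share in their spread was not tested.

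Genes classed as shared with bacteria and genes classed as gained in mitochondria gave similar medians. Mrps18a and Mrps18b were counted as gained in mitochondria, and Mrps28, Mrps36 and Mrpl55 in neither class. Of those shared with bacteria 37 of 42 tested had a lower mean, with a median of -0.33 log2, and of those gained in mitochondria 22 of 27, with a median of -0.34 log2. The difference between the classes was not tested.

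Other genes of the mitochondrial translation apparatus gave mixed values, apart from mitoribosomal proteins under other names, which were mostly lower. None passed the adjusted threshold. Among all genes tested, 52.2% had a lower mean, and 4.05% were lower at an unadjusted limma p under 0.05. Among mitoribosomal proteins under other names a lower mean was found in 6 of 7, with a median of -0.48 log2 and 2 genes lower at an unadjusted p under 0.05, Mrp63 of the large subunit at -0.66 ± 0.22 and Aurkaip1 of the small at -0.52 ± 0.23 (SE). Dap3, a GTP-binding protein of the small subunit, was the most abundant of them at 280.5 ± 56.2 RPM (SD over 8 females). Ptcd3, a pentatricopeptide repeat protein of the small subunit, was the 1 with a higher mean, at 0.36 ± 0.24 (SE). Gadd45gip1, Ict1, Chchd1 and Dap3 were at -0.51 ± 0.29, -0.48 ± 0.27, -0.38 ± 0.31 and -0.09 ± 0.19 (SE). Translation factors had lower means in 7 of 12, with a median of -0.05. The initiation factor gene Mtif3 was at -0.36 ± 0.18, and Gfm1, the elongation factor that moves the ribosome along, at 0.30 ± 0.18 (SE). Factors that build and modify the ribosome had lower means in 9 of 17, with a median of 0.00, and 1 gene at an unadjusted p under 0.05, the pseudouridine synthase gene Rpusd3 at -0.89 ± 0.29 (SE). The most abundant of them was Nsun4, a methyltransferase of the ribosomal RNA, at 129 ± 21.4 RPM (SD over 8 females). Mitochondrial tRNA synthetases had lower means in 6 of 10, with a median of -0.14, Lars2 for leucine at -0.53 ± 0.36 and Fars2 for phenylalanine at -0.25 ± 0.16 (SE). Genes for copying and expressing mitochondrial DNA had lower means in 7 of 11, with a median of -0.06. Of these Tfam, which packages mitochondrial DNA and starts its transcription, was at -0.64 ± 0.30 and Lrpprc, which stabilises mitochondrial messenger RNAs, at 0.44 ± 0.23 (SE).

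Genes of the cytosolic ribosome and of the respiratory chain also had mostly lower means, where 52.2% of all genes tested did. Cytosolic ribosomal protein genes had a lower mean in 59 of 61 tested, with a median of -0.39 log2, and nuclear genes of oxidative phosphorylation in 67 of 73, with a median of -0.50. Of 12 mitochondrially encoded protein genes tested, 9 had a lower mean, with a median of -0.14. Differences between these sets and the mitochondrial ribosomal protein genes were not tested.

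The transgenic female of lane 1, which had the highest share of reads in listed genes (94.5%), had the lowest levels of many of these genes. Both of its oocytes were below all 19 other oocytes in 14 of 72 mitochondrial ribosomal protein genes (3.68% of all genes), and above them in 1, Mrpl10 (1.34%). The 14 were Mrpl18, Mrpl40, Mrpl47, Mrpl13, Mrpl12, Mrpl42, Mrpl54, Mrpl34, Mrpl1, Mrpl30, Mrps5, Mrps21, Mrps33 and Mrps18c, named after their values were seen. Mrpl18 had 193 and 198 RPM in these oocytes and 232 to 385 RPM in the others. Mrpl13, the counterpart of L13, had 6.44 and 5.55 RPM in them, and the next lowest was an oocyte of the wild-type lane 4 female at 6.73 RPM.

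The wild-type female of lane 4 was apart in the opposite direction in a few genes. Both of its oocytes were above all others in 5 of 72, near the share of all genes (4.88%), and below in 1, Mrps27 (2.54%). The 5 were Mrpl22, Mrpl39, Mrps28, Mrps31 and Mrps11, named after their values were seen. Mrpl22, the counterpart of L22 that lines the exit tunnel, had 22.3 and 21.7 RPM in these oocytes and 1.10 to 6.95 RPM in the others. Mrps28 had 38.0 and 38.5 RPM against at most 18.7 RPM, and Mrps31, a small subunit protein without a bacterial counterpart, had 76.0 and 100.8 RPM against at most 37.7 RPM. Mrpl39 had 25.7 and 40.2 RPM against at most 12.7 RPM. Mrps11 had 8.20 and 9.22 RPM against at most 6.90 RPM. The 5 genes were picked by this order of the oocytes, so the gaps are part of their selection.

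The Mrpl22 promoter is shown because this gene had the widest gap, as a ratio, between that female and the rest.
Mrpl22 (chr11:58171414-58171653, plus strand): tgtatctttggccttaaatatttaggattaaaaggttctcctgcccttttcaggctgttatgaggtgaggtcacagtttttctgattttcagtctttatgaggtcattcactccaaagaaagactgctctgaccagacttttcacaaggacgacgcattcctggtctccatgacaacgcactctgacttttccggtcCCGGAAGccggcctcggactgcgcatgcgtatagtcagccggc
It holds CCGGAAG once and none of the other motifs searched.

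**Figure D4:**
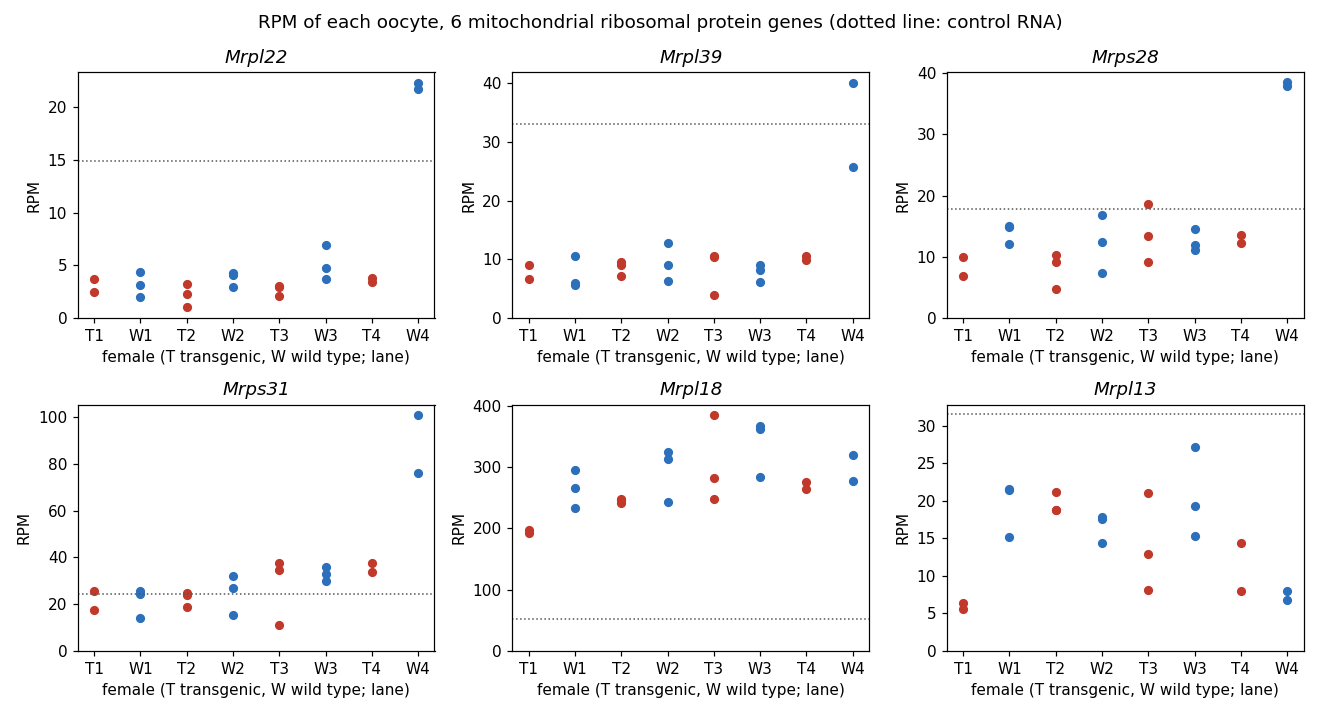
RPM of single oocytes (points, linear axis from 0) by female, T for transgenic in red and W for wild type in blue, each followed by its lane; the dotted line is the control RNA library. Both oocytes of W4 lie above all others for Mrpl22, Mrpl39, Mrps28 and Mrps31, and both of T1 lie below all others for Mrpl18 and Mrpl13.

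Spread between oocytes was close to that of other genes. The SD of log2(RPM + 1) among oocytes of 1 female had a median of 0.387 over the 72 genes tested, against 0.410 over all genes, and the SD between females was 0.327 against 0.321. Above a mean of 5 RPM the values were 0.372 and 0.358 within females and 0.323 and 0.294 between females. In that range the widest spread within females was that of Mrps30, Mrps35 and Mrpl49, at 0.875, 0.612 and 0.582, and the narrowest that of Mrpl24 and Mrpl10, at 0.182 and 0.190. Mrps30 went from 0.630 to 16.1 RPM in single oocytes, and in the wild-type female of lane 2 alone it had 11.1, 0.630 and 7.18 RPM. Mrpl24, the counterpart of L24, kept between 90.5 and 153 RPM in all 21 oocytes. Counting error is part of each of these SDs and is larger for low genes.

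Against the control RNA the share of these genes that was lower in oocytes was close to that of all genes. The control is 1 library of RNA whose tissue the labels do not give, with no replicate check. The log2 ratio of the mean RPM of the 8 females to the control, with 1 RPM added to both, had a median of -1.35 over the 76 genes, -0.61 for the small subunit and -1.64 for the large. Over all 25899 symbols, with no limit on level, it was -0.05. More than 2-fold higher in oocytes were 13 of 76 (24.5% of the 16073 genes at 1 RPM or more in either), and more than 2-fold lower were 42 (56.5%). The lower count is near its background, and the higher count is below its own. Neither was tested, nor was the difference between the subunits. The highest ratios were those of Mrpl21, Mrpl32 and Mrpl18, at 2.82, 2.37 and 2.37. In RPM they were 189.9, 119.8 and 276 in oocytes and 26.0, 22.4 and 52.7 in the control. The lowest were those of Mrpl43, Mrpl27 and Mrpl28, at -4.75, -4.28 and -4.18. These genes had 37.9, 32.9 and 83.7 RPM in the control, and Mrpl27 and Mrpl28 are counterparts of bacterial proteins, L27 at the site of peptide bond formation and L28. Of the exon bases of Mrpl43, 33.4% overlap Twnk, the mitochondrial helicase gene, on the opposite strand.

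**Figure D5:**
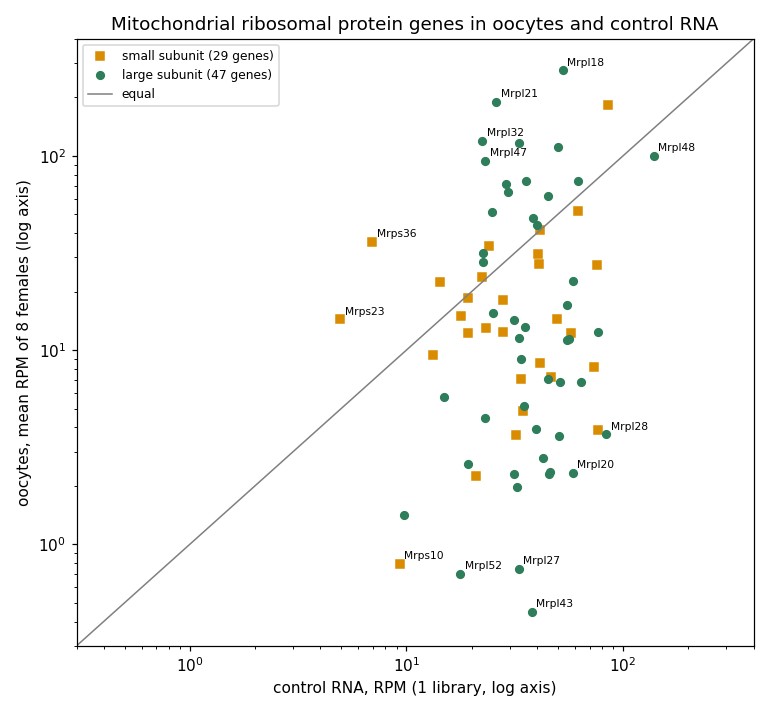
Mean RPM of the 8 females (vertical, log axis) against RPM in the single control RNA library (horizontal, log axis) for each small subunit gene (orange squares, 29) and large subunit gene (green circles, 47); the line marks equal values and named genes include those with the highest and lowest ratios. Oocyte levels run over a wider range than control levels, and most genes lie below the line.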

How the data were processed

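The authors deposited log2 values for 22 columns, 21 oocytes and 1 control RNA; the labels list 24 samples, and the water library and the first oocyte (A) of the transgenic lane 1 female were not analysed here. Per the submitters' processing notes Trim Galore, FastQC and HISAT2 were used, with the builds GRCm39 and mm39 named; neither the counting tool nor the annotation is stated. Per the labels' protocols cDNA was amplified with SMART-Seq v4 and libraries were made with ThruPLEX; strand is not stated. The deposited values are described as RPKM, but they are log2 of RPM with a gene without reads set to 0.9 reads: 100% of the 256342 values between 0 and 2000 reads came out whole to within 0.02 reads. RPM was computed from them, with such genes at 0. Of 25965 entries, 66 repeated a symbol and were dropped. The table's coordinates match GRCm38, as 99.8% of 24987 matched genes overlapped their GENCODE M21 gene. Exon and coding lengths and overlaps are from M21 (75 of 76 genes matched).

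Female means of log2(RPM + 1), for the genes whose mean reached 1 RPM, were tested with limma 3.58.1 (trend; R 4.3.3). Tests were two-sided, p-values were adjusted by Benjamini and Hochberg's method over all 10965 genes, and the threshold was 0.05. The plan had assumed RPKM for the filter and the pseudocount, and RPM took its place. By the labels each lane holds a pair of females, 1 per genotype, and this pairs them; the correlations of deviations from the group means were -0.040, 0.083, 0.34 and 0.32 in lanes 1 to 4. Unadjusted counts are given as descriptions. Alternatives were another pseudocount, other filters, lane as a block, centring, single oocytes and leaving out each female. The script was tested on simulated data. Genes named are the 3 highest and 2 lowest per length in each subunit, the 6 with the smallest p in each direction, the 3 most and 2 least variable within females at a mean of at least 5 RPM, the 3 highest and 3 lowest against the control RNA, Mrps18a, Mrps18b, Mrps18c, Mrps30, Mrps36, those below the filter, and a few per related list; others are marked where named. The genes, lists and motifs were chosen with earlier results of these data known; an NRF1 motif was also searched and is not reported here.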

Additional observations from a re-analysis of the deposited data

Results flagged for a closer look

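In 104 groups of 4 female means, a single female whose gap to its neighbour took more of the group's range than Dixon's 95% limit for 4 values allows was found 8 times; chance gives about 1 in 20. In wild-type females the female of lane 4 was the highest for Mrpl22 at 22.0 RPM, Mrpl39 at 32.9 RPM, Mrps28 at 38.2 RPM and Mrpl49 at 8.04 RPM. The wild-type female of lane 1 was the lowest for Mrpl9, the counterpart of L9, at 51.4 RPM and for Mrps36 at 34.0 RPM. The wild-type female of lane 3 was the highest for Mrps33 at 32.1 RPM. In transgenic females that of lane 1 was the lowest for Mrpl14 at 7.55 RPM, where the other 3 lay between 11.5 and 11.6 RPM. Several of these genes, among them Mrpl22, Mrpl39 and Mrps28, were added to the groups examined after their values were seen. The count of 8 can therefore not be set against the chance rate.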

How the results depend on the processing

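No mitochondrial ribosomal protein gene passed an adjusted p of 0.05 under any of the 14 alternatives. Single oocytes with the female as random effect (1 shared correlation of 0.0495) called 12 genes of all tested. None of the 12 was a mitochondrial ribosomal protein gene, and the smallest adjusted limma p of those was 0.061. The number lower at an unadjusted p, 11 of 72 as reported, was 19 with the replicate block by lane, 26 with single oocytes (9.04% of all genes) and 5 to 23 when each female was left out (2.10% to 7.51% of all genes); the cause was not tested. The block changed no adjusted call. The median difference kept its sign throughout, from -0.40 to -0.21, as did the small minus large difference, from -0.16 to -0.10. Of the 12 genes named for their p, Mrpl3 alone changed sign, to -0.0061 and -0.028 in the fits that left out the transgenic lane 4 and the wild-type lane 3 female; leaving out each female in turn gave it values from -0.028 to 0.17. Against the control RNA the median was -1.62 with transgenic females only. Per coding kilobase, taken from the annotation since no protein sequences were used here, the median levels were 24.04 for the small and 19.2 for the large subunit. Genes of the wild-type female of lane 4 above all others numbered 4 at a mean of at least 5 RPM, an alternative chosen after seeing the data. The 4 females per genotype limit the tests, and counting error limits genes near 1 RPM.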

Other observations

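Start sites of mitochondrial ribosomal protein genes often lay close to that of a neighbour on the other strand. For 24 of 75 genes (32.0%) a protein-coding gene on the opposite strand started within 500 bases of the start, against 14.3% of 10279 tested protein-coding genes; this is a description with no test. Mrpl46 and Mrps11 form such a pair with each other, their starts 412 bases apart, and their differences between genotypes were -0.31 and -0.30 log2, none past the adjusted threshold. The transcripts share 173 exon bases, and without strand those reads cannot be told apart.

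Levels within a pair could differ widely. Mrps18c had 2.24 RPM and Helq, a DNA helicase gene that starts 29 bases away, had 402 RPM. Mrpl21 had 189.9 RPM and Ighmbp2 had 6.64 RPM, with starts 116 bases apart. Mrpl32 and Psma2, a proteasome subunit gene, had 119.8 and 417 RPM, with genotype differences of -0.43 and -0.26 log2. Mrpl49 and Fau, which encodes a ubiquitin-like protein fused to a cytosolic ribosomal protein, start 59 bases apart and differed by 0.51 and -0.47 log2. For Mrpl36 and Ndufs6, a complex I subunit gene, the values were 0.13 and -0.69 log2. None of these values passed the adjusted threshold.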
